A study of Mus musculus with 8 samples.

Results

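The p53 target genes described here are 10 mouse genes: Cdkn1a, Mdm2, Ccng1, Trp53inp1, Bbc3, Bax, Gadd45a, Btg2, Phlda3 and Eda2r. They were chosen by symbol, and all 10 were found among the 35275 genes of the deposited table. The RNA came from myotubes, the multinucleated muscle cells that form in culture when myogenic progenitor cells (MPCs) fuse, here from primary MPCs of C57BL6/J mice. MPC EV myotubes received extracellular vesicles (EVs, small membrane particles released by cells) from proliferating primary MPCs for 24 h or 12 h. Control myotubes received EVs obtained from growth medium for 24 h or 12 h, and no untreated myotubes are among the samples. Each of the 4 groups had 2 libraries, 8 in all, and the study asked how MPC EVs act on gene expression in myotubes. Nothing in the labels ties the libraries to separate cultures, and p-values therefore reflect library-to-library spread alone, which can be technical.

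The transcription factor p53 is kept low in unstressed cells, mainly because the ubiquitin ligase Mdm2, itself a p53 target, marks it for degradation. When DNA damage or other stress stabilises p53, it binds a paired decamer element near its target genes and raises their transcription, and the products stop the cell cycle, repair DNA, feed back on p53 or start apoptosis. In muscle, Cdkn1a is also raised without p53 when progenitors leave the cell cycle to form myotubes.

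Promoter windows were available for 9 of the 10 genes (12 windows, RefSeq, GRCm38.p6, from 250 bases before to 50 after an annotated start). They were searched for the p53 consensus element, 2 sites of 10 bases with 0 or 1 base between them and at most 2 mismatches, none of them in the C and G core of a site; the element reads the same on both strands. It was found in windows of 3 genes, Cdkn1a, Ccng1 and Bax, and in 0.683% of all 32817 promoter windows. These 3 windows are shown because the genes carry the same kind of element, while in the myotubes Cdkn1a fell and Bax rose with time. Ccng1 did not pass the test. Both its 24 h libraries were above both 12 h libraries in either treatment. Over all tested genes this held for 47.1% in MPC EV and for 27.8% in control myotubes. The closest values of Ccng1 in MPC EV myotubes were 116.7 FPKM at 24 h and 114.3 FPKM at 12 h. The spread of Ccng1 includes control 12 h replicate 2, described below. Without that library its log2 change was 0.19 in MPC EV and 0.21 in control myotubes. The element is in capitals and each window is written 5′ to 3′ on the strand of the gene.
Cdkn1a (chr17:29090729-29091028, plus strand): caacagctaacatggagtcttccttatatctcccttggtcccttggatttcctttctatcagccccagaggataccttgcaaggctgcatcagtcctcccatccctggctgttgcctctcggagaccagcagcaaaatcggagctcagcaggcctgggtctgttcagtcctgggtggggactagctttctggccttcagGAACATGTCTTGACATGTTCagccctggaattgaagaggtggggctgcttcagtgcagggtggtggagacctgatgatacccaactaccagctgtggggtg
Ccng1 (chr11:40755237-40755536, minus strand): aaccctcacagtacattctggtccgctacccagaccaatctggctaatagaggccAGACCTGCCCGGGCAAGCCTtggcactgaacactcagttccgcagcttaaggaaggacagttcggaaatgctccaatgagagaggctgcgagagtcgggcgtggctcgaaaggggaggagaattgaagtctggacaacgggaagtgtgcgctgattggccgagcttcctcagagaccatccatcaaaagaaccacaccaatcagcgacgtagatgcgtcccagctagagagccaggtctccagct
Bax (chr7:45466849-45467148, minus strand): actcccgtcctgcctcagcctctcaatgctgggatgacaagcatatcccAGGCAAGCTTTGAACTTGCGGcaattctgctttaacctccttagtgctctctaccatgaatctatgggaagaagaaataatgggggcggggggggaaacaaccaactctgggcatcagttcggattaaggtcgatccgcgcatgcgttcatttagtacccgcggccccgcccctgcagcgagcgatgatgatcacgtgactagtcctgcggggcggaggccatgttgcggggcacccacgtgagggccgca
The elements of Cdkn1a and Ccng1 have 1 mismatch each and begin 51 and 195 bases before the annotated start, and that of Bax has 2 mismatches and begins 201 bases before it. The Cdkn1a window is that of the more upstream of 2 annotated starts. A match describes these letters only, and the absence of one in the other windows says nothing of sites elsewhere in a gene.

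Values are in FPKM, a fragment count scaled to gene length and library total, which lets levels of different genes be set side by side. From the spacing of the lowest values, libraries held 16.3 to 20.2 M fragments. The 12 myotube markers summed to 9292 to 15334 FPKM in the 8 libraries, while 6 endothelial markers summed to at most 0.558 and 7 immune markers to at most 2.86 FPKM. Markers of progenitors were present in part, with Pax7 between 4.29 and 7.56 FPKM and Myf5 between 5.39 and 15.1 FPKM. The progenitor markers Chodl and Heyl reached at most 0.182 and 0.526 FPKM. In bulk RNA, a change in the number of cells of a type and a change in RNA per cell cannot be told apart.

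Control 12 h replicate 2 stands apart from the other libraries, most of all for 3 of the 10 genes. Its log2 values correlated across genes with those of its partner at 0.947, against 0.992 to 0.996 within the other groups. Its deviation from the mean of the other 7 libraries correlated with the GC content of the transcript across 10945 genes (r = 0.55; genes are not independent replicates). Against the mean of all 8 libraries that r was 0.19 for MPC EV 24 h replicate 1 as well. It was -0.26 to -0.14 for the remaining libraries. In MPC EV 24 h replicates 1 and 2, Trp53inp1 had 6.53 and 11.1, Ccng1 116.7 and 144.4 and Eda2r 106.7 and 113.6 FPKM. In control 12 h replicate 2, Trp53inp1, Ccng1 and Eda2r, with 38.8%, 40.8% and 40.9% GC, deviated by -3.0, -1.87 and -0.88 on the log2 scale. The other 7 genes, with 46.2% to 65.2% GC, deviated by -0.19 to 0.31. Leaving that library out also changed values of others of the 10 genes, and calls of the 10 genes that it changed are given beside the results. For the wider gene lists such changed calls are given only in part.

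**Figure D1:**
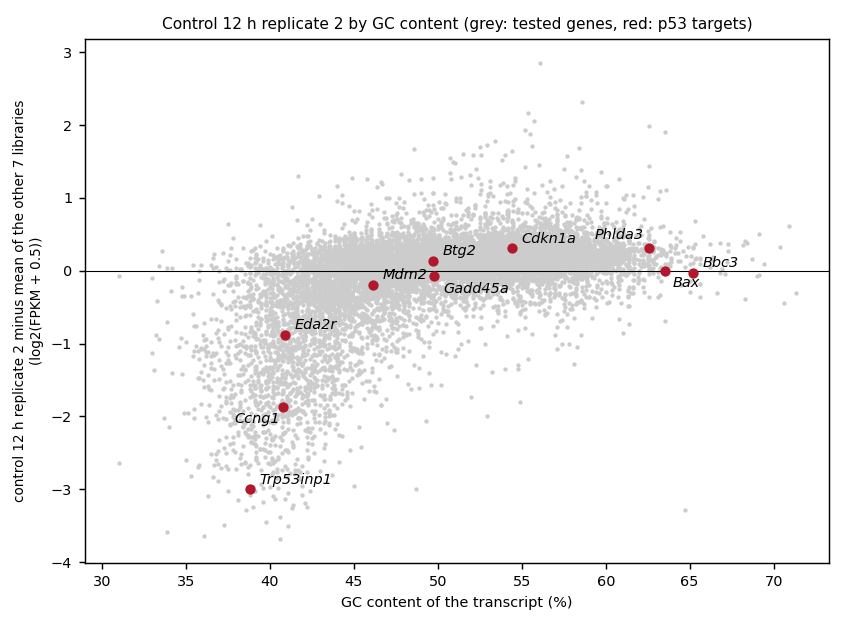
Each point is a gene: the x axis gives the GC content of its transcript in percent, the y axis the log2(FPKM + 0.5) of control 12 h replicate 2 minus the mean of the other 7 libraries. Trp53inp1, Ccng1 and Eda2r (red, labelled) sit at 38.8% to 40.9% GC with deviations of -3.0, -1.87 and -0.88, and the other 7 p53 targets lie near 0.

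All 10 genes passed the filter of a mean of at least 1 FPKM, and their levels spanned a wide range. Cdkn1a, which encodes the cyclin-dependent kinase inhibitor p21 (ENSMUSG00000023067, chromosome 17, 29090976 to 29100727, GRCm38), was the most abundant at 1061 to 1475 FPKM. Gadd45a, a stress-induced gene of growth arrest, came next at 205 to 341 FPKM, followed by the apoptosis effector Bax (139.5 to 256.5 FPKM) and by Phlda3, an inhibitor of Akt signalling (141 to 206 FPKM). Gadd45a was above Bax and Phlda3 in each of the 8 libraries, although the ranges over all libraries overlap. Bax was below Phlda3 in MPC EV 12 h replicate 2 and control 12 h replicate 2 and above it in the others. Eda2r, a receptor of the tumour necrosis factor receptor family, and Ccng1, which encodes cyclin G1, lay between 34.2 and 144 FPKM. Mdm2, at 60.4 to 80.8 FPKM, lies within their range. The 3 lowest, whose ranges overlap only between Bbc3 and Btg2, were Bbc3, which encodes the BH3-only protein PUMA (15.0 to 34.0 FPKM), the antiproliferative gene Btg2 (18 to 27.3 FPKM) and Trp53inp1, a stress-induced cofactor of p53 (0.742 to 11.1 FPKM).

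**Figure D2:**
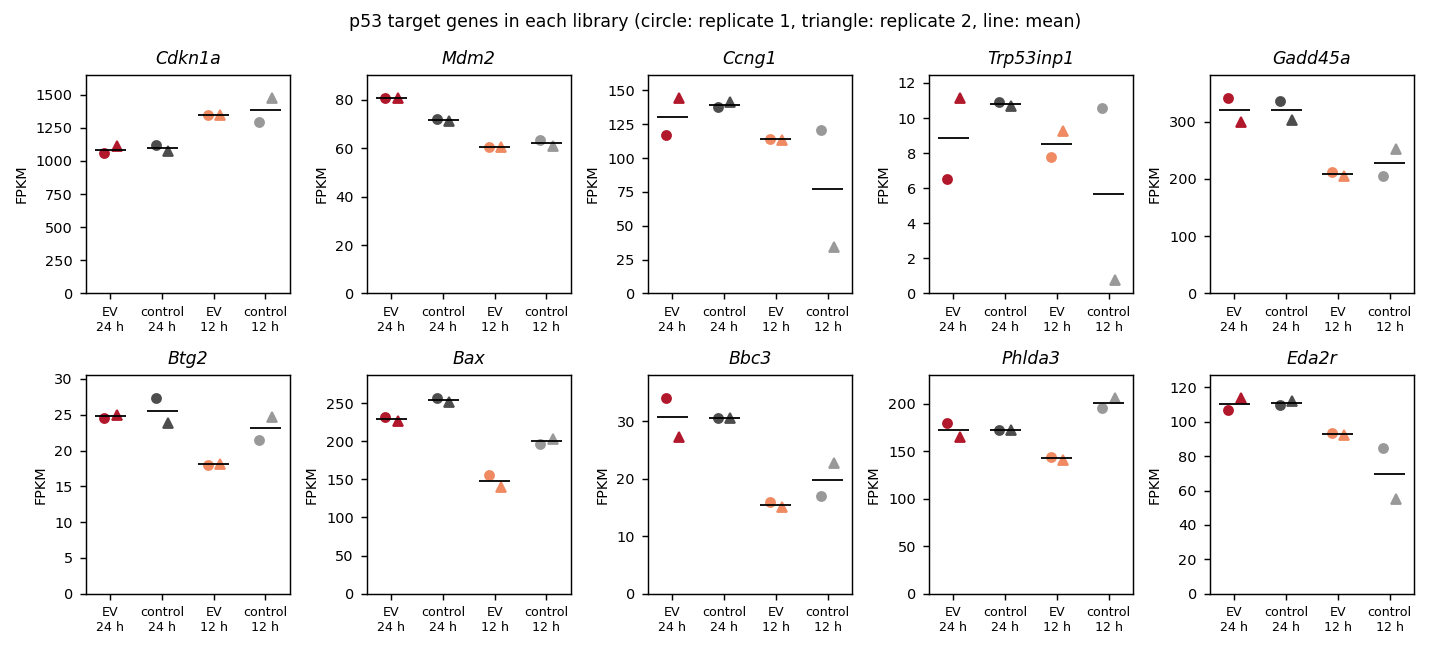
FPKM (y axes, from 0) of each p53 target gene in the 8 libraries, by group on the x axis; circles are replicate 1, triangles replicate 2 and lines group means. Bbc3, Gadd45a, Bax and Mdm2 are higher at 24 h than at 12 h in either treatment, Cdkn1a is lower, and the triangle of control 12 h is far below the other points for Ccng1 and Trp53inp1.

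More of the 10 genes passed the test for time than for MPC EVs. In MPC EV myotubes 6 genes rose and 1 fell at 24 h relative to 12 h, and 3 did not pass. Over all 10981 genes tested, 12.9% rose and 5.4% fell in this comparison (18.3% in all). The genes that rose hold feedback, growth arrest and apoptosis functions alike, and the one that fell was Cdkn1a. The median log2 change of the 10 genes was 0.34, against 0.10 for all tested genes. Changes and errors are on the log2(FPKM + 0.5) scale, which understates those of low genes, and every adjusted p is two-sided, from limma, with the Benjamini-Hochberg method applied to the full set of tested genes.

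Bbc3 had 34.0 and 27.3 FPKM in MPC EV myotubes at 24 h, against 15.9 and 15.0 FPKM at 12 h. That is a log2 change of 0.96 ± 0.16 (SE, n = 2 libraries each, adjusted p = 0.0112), the largest among the 10 genes. With GC and length correction the change of Bbc3 was 0.74 (limma, adjusted p = 0.0267). Its protein partner Bax had 231.6 and 227.0 FPKM at 24 h, against 156.3 and 139.5 FPKM at 12 h (0.63 ± 0.07, adjusted p = 0.00313). Both apoptosis genes were thus higher in both 24 h libraries than in either 12 h library. Gadd45a had 341.2 and 298.5 FPKM at 24 h, against 211.6 and 204.7 FPKM at 12 h (0.62 ± 0.12, adjusted p = 0.0184). Btg2 had 24.6 and 24.9 FPKM at 24 h, against 18 and 18.2 FPKM at 12 h (0.44 ± 0.09, adjusted p = 0.0248). Mdm2, the negative regulator of p53, was almost the same in the 2 libraries of a group: 80.8 and 80.8 FPKM at 24 h, against 60.4 and 60.4 FPKM at 12 h (0.42 ± 0.05, adjusted p = 0.00453). Phlda3 had 180.1 and 164.9 FPKM at 24 h, against 144.4 and 140.9 FPKM at 12 h (0.27 ± 0.06, adjusted p = 0.0316). The groups did not overlap for any of these 6 genes; all 24 h values were above the 12 h values for 47.1% of all tested genes, and 70.7% did not overlap in either direction.

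Cdkn1a ran against the others. It had 1061 and 1109 FPKM in MPC EV myotubes at 24 h, against 1344 and 1349 FPKM at 12 h, a log2 change of -0.31 ± 0.08 (adjusted p = 0.0438). This fall did not pass with a minimum mean of 0.1 FPKM, without a filter, without a variance trend or with a replicate term. With 1 library left out the change was -0.34 to -0.28. Ccng1, Eda2r and Trp53inp1 did not pass, with log2 changes of 0.19 ± 0.52, 0.25 ± 0.18 and 0.01 ± 0.92. All groups share 1 estimate of spread per gene, which includes control 12 h replicate 2, and without that library Eda2r passed as well (0.25, adjusted p = 0.00837). The median of all genes moved by more than 0.1 with median-ratio scaling, to -0.01. Under that scaling the rise of Phlda3 was 0.16 and did not pass (adjusted p = 0.138), while the other 5 rises and the fall of Cdkn1a did. The count of 7 became 2, 3, 2 and 2 without MPC EV 24 h replicate 1, 24 h replicate 2, 12 h replicate 1 and 12 h replicate 2, when 4.11%, 4.06%, 4.4% and 5.96% of all genes passed. Mdm2 and Bax passed in all 8 fits that left out 1 library. GC and length correction over all 8 libraries ended the calls of Bax (0.39, adjusted p = 0.319) and Phlda3 (0.06, adjusted p = 0.865). With control 12 h replicate 2 also left out Bax passed (adjusted p = 0.00342) and Phlda3 did not (0.06, adjusted p = 0.303).

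In control myotubes 5 genes rose and 1 fell at 24 h relative to 12 h, against 7.54% and 10.3% of all tested genes (17.8% in all). Cdkn1a, Mdm2, Bbc3, Bax and Gadd45a passed in the same direction as in MPC EV myotubes, in libraries that the other comparison did not use, although the estimate of spread was shared. The share of all tested genes that passed in both treatments in the same direction was not computed. With GC and length correction over all 8 libraries 3 of these 5 control calls were lost: Cdkn1a was at -0.19 (adjusted p = 0.125), Mdm2 at 0.11 (adjusted p = 0.304) and Bax at 0.76 (adjusted p = 0.0769). Bbc3 was at 1.04 and Gadd45a at 0.56 under that correction, and both passed. Cdkn1a had 1118 and 1076 FPKM in control myotubes at 24 h, against 1292 and 1475 FPKM at 12 h (-0.33 ± 0.08, adjusted p = 0.0363). As in MPC EV myotubes, this fall did not pass with a minimum mean of 0.1 FPKM, without a filter, without a variance trend or with a replicate term. With 1 library left out the change was -0.43 to -0.24. Bbc3 had 30.6 and 30.6 FPKM at 24 h, against 17.0 and 22.7 FPKM at 12 h (0.63 ± 0.16, adjusted p = 0.0394). Gadd45a had 336.6 and 302.7 FPKM at 24 h, against 205.5 and 251.3 FPKM at 12 h (0.49 ± 0.12, adjusted p = 0.0357). Each of these 3 genes had groups that did not overlap; over all tested genes 27.8% lay wholly higher at 24 h and 58.8% did not overlap in either direction.

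Bax had 256.5 and 251.4 FPKM in control myotubes at 24 h, against 196.3 and 203.5 FPKM at 12 h (0.34 ± 0.07, adjusted p = 0.0189). Mdm2 had 72.0 and 71.4 FPKM at 24 h, against 63.6 and 60.9 FPKM at 12 h (0.20 ± 0.05, adjusted p = 0.0398). Eda2r had 110.0 and 112.3 FPKM at 24 h, against 84.4 and 54.9 FPKM at 12 h (0.70 ± 0.18, adjusted p = 0.0447). The size of the Eda2r rise depended on control 12 h replicate 2, without which it was 0.39 (adjusted p = 0.0042). Phlda3 had 172.7 and 172.5 FPKM at 24 h, against 195.9 and 205.9 FPKM at 12 h (-0.22 ± 0.06, adjusted p = 0.0603; 0.15 with GC and length correction), and Btg2 had a log2 change of 0.14 ± 0.09 (adjusted p = 0.322). Ccng1 and Trp53inp1 had the largest log2 changes, 1.11 ± 0.52 and 1.61 ± 0.92, and did not pass. Without control 12 h replicate 2 these were 0.21 and 0.03.

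The control count changed with most libraries left out. It was 5 without control 12 h replicate 2, when Mdm2 no longer passed (0.17, adjusted p = 0.0607). It was 0 without MPC EV 24 h replicate 1 or either control 24 h library, 1 without MPC EV 24 h replicate 2 or either MPC EV 12 h library, and 9 without control 12 h replicate 1. The share of all genes that passed was 4.78% to 12% in the fits with a count of 0, 12% to 13.1% in those with 1, and 41.2% in that with 9. When GC content and transcript length were corrected and control 12 h replicate 2 left out, 6 genes rose and 2 fell with time in control and 7 rose and 1 fell in MPC EV myotubes. Those counts stand against a background of 27.4% and 39.7% of all genes called in either direction.

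**Figure D3:**
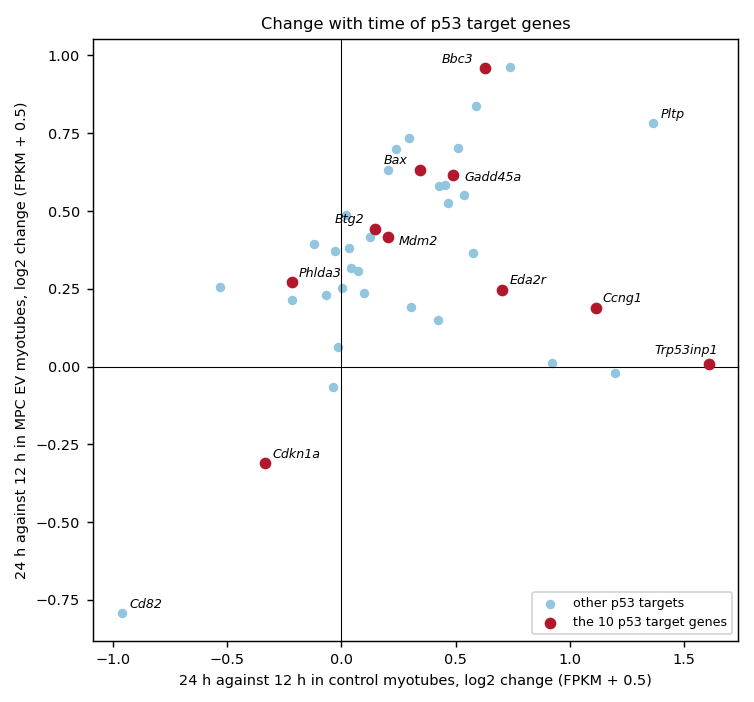
Log2 change of 24 h against 12 h in MPC EV myotubes (y axis) and in control myotubes (x axis), each on the log2(FPKM + 0.5) scale; red points are the 10 p53 target genes, blue points 31 other p53 targets. Bbc3 lies at 0.96 in MPC EV and 0.63 in control myotubes and Cdkn1a at -0.31 and -0.33; Ccng1 and Trp53inp1 lie far right at 1.11 and 1.61, against 0.21 and 0.03 without control 12 h replicate 2.

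Other genes moved with time in the same libraries. Of 18 cell cycle genes known to be lowered through p21, 14 rose and none fell in MPC EV myotubes at 24 h, and 8 rose and 4 fell in control myotubes. Of all tested genes 12.9% rose and 5.4% fell in MPC EV myotubes, and 7.54% rose and 10.3% fell in control myotubes. Ccnb1, the mitotic cyclin B1, rose by 1.83 ± 0.09 in MPC EV and by 1.53 ± 0.09 in control myotubes (adjusted p = 0.000687 and 0.000446). The myotube markers summed to 11985 to 13183 FPKM at 24 h, against 14778 to 15334 FPKM at 12 h in MPC EV myotubes, and to 9292 to 9627 against 12831 to 14764 FPKM in control myotubes. Progenitor markers summed to 518 to 536 FPKM at 24 h, against 680 to 723 FPKM at 12 h in MPC EV myotubes, and to 508 to 515 against 738 to 779 FPKM in control myotubes. Myod1, at 414 to 664 FPKM over the 8 libraries, made up most of these sums. Pax7 and Myf5 went the other way and were higher at 24 h in both treatments, while Sdc4 and Megf10 were lower. Vcam1 was higher in MPC EV and lower in control myotubes. The part of these genes and markers in the changes of the p53 targets was not tested.

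At 24 h none of the 10 genes passed the test for MPC EVs against control in limma with Benjamini-Hochberg adjustment, and 1 had an unadjusted p under 0.05, as had 14.2% of all genes. Of all tested genes 3.57% passed, 2.61% higher and 0.956% lower. Mdm2 was that gene, with 80.8 and 80.8 FPKM in MPC EV myotubes, against 72.0 and 71.4 FPKM in control (0.17 ± 0.05, adjusted p = 0.167). Bax had 231.6 and 227.0 FPKM in MPC EV myotubes, against 256.5 and 251.4 FPKM in control (-0.15 ± 0.07, adjusted p = 0.425). For Mdm2 (higher) and Bax (lower) the groups did not overlap, as for 54% of all genes (23.7% higher, 30.2% lower), and for the other 8 genes they did. Cdkn1a, with 1061 and 1109 FPKM in MPC EV myotubes and 1118 and 1076 FPKM in control, had a log2 change of -0.02 ± 0.08. Gadd45a, Bbc3, Phlda3, Eda2r and Btg2 had log2 changes between -0.04 and 0.00, with errors of 0.06 to 0.18. With GC and length correction and without control 12 h replicate 2, Mdm2 and Bax passed (0.20 and -0.27, adjusted p = 0.0279 and 0.0466), when 10.3% of all genes did. Myotube markers moved in the same libraries: 5 of 12 rose with MPC EVs at 24 h and 4 of 12 at 12 h, none fell. Fibroblast markers summed to 28.0 to 28.6 FPKM in MPC EV myotubes, against 44.4 to 47.4 FPKM in control at 24 h, and to 20.2 to 23.1 against 29.8 to 32.1 FPKM at 12 h. Only 3 of these 8 markers passed the filter: Islr, Col1a1 and Col3a1. Most of the gap at 24 h was Islr (2.23 and 2.42 FPKM in MPC EV myotubes, against 13.0 and 14.0 FPKM in control). Pdgfra, below the filter, was higher in MPC EV myotubes at 24 h (1.23 and 0.872 FPKM, against 0.865 and 0.777 FPKM in control). The part of these markers in the results was not tested.

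At 12 h, 2 of the 10 genes fell in MPC EV myotubes and none rose, close to the 14.3% of all genes that fell, while 4.36% rose (18.6% in all). Phlda3 had 144.4 and 140.9 FPKM in MPC EV myotubes, against 195.9 and 205.9 FPKM in control (-0.49 ± 0.06, adjusted p = 0.00793). Bax had 156.3 and 139.5 FPKM in MPC EV myotubes, against 196.3 and 203.5 FPKM in control (-0.44 ± 0.07, adjusted p = 0.0135). Both MPC EV libraries were below both control libraries for these genes, and likewise for Btg2, Bbc3 and Mdm2, which did not pass, as for 45% of all genes. For Eda2r they were above, and 62.1% of all genes did not overlap in either direction. Mdm2 had a log2 change of -0.04 ± 0.05 (adjusted p = 0.551), which was 0.09 with median-ratio scaling, and Bbc3 turned to 0.17 with GC and length correction. Btg2 had 18 and 18.2 FPKM in MPC EV myotubes, against 21.5 and 24.7 FPKM in control (-0.34 ± 0.09, adjusted p = 0.0517). Bbc3 had 15.9 and 15.0 FPKM in MPC EV myotubes, against 17.0 and 22.7 FPKM in control (-0.33 ± 0.16, adjusted p = 0.166), and -0.13 without control 12 h replicate 2 (adjusted p = 0.489).

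The growth arrest genes did not pass at 12 h, and Cdkn1a and Gadd45a changed sign with the scaling (0.10 and 0.01 with median-ratio scaling, 0.059 and 0.018 without control 12 h replicate 2). Cdkn1a had 1344 and 1349 FPKM in MPC EV myotubes, against 1292 and 1475 FPKM in control (-0.04 ± 0.08, adjusted p = 0.751), and Gadd45a had 211.6 and 204.7 against 205.5 and 251.3 FPKM (-0.13 ± 0.12, adjusted p = 0.437). Ccng1 had 114.3 and 113.3 FPKM in MPC EV myotubes, against 120.5 and 34.2 FPKM in control, and Trp53inp1 had 7.80 and 9.27 against 10.6 and 0.742 FPKM. Their log2 changes of 0.82 ± 0.52 and 1.28 ± 0.92 (adjusted p = 0.272 and 0.323) turned to -0.08 and -0.30 without control 12 h replicate 2. Eda2r had 93.2 and 92.1 FPKM in MPC EV myotubes, against 84.4 and 54.9 FPKM in control (0.44 ± 0.18, adjusted p = 0.13), and 0.13 without that library.

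The median of all genes was -0.12 at 12 h and 0.01 with median-ratio scaling, so the changes are also given relative to it. Relative to that median Phlda3 changed by -0.38 and Bax by -0.32. Under median-ratio scaling both still passed (-0.36 and -0.30, adjusted p = 0.0202 and 0.0429), and the share of calls over all genes that were falls changed, with 736 rises and 548 falls against 479 and 1566. GC and length correction over all 8 libraries ended both calls: Phlda3 was at -0.02 and Bax at 0.11. With the same correction and control 12 h replicate 2 left out, both passed again (-0.39 and -0.31, adjusted p = 0.0041 and 0.0417). Leaving out 1 library changed the count of 2 to 1 without MPC EV 12 h replicate 1 (Bax), 0 without MPC EV 12 h replicate 2 and 8 without control 12 h replicate 1. In those 3 fits 1.93%, 2.5% and 51.6% of all genes passed, against 18.6% with all libraries.

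**Figure D4:**
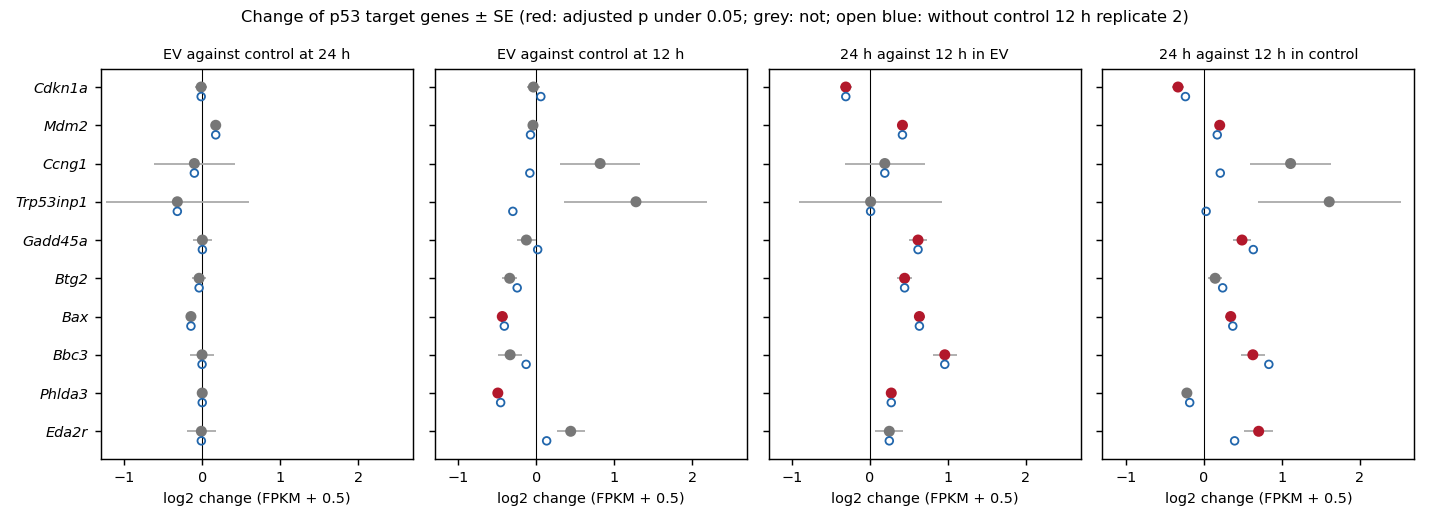
Log2 changes of the 10 genes (x axes, log2(FPKM + 0.5)) in 4 comparisons with their SE as bars; red points have an adjusted p under 0.05, grey points do not, and open blue circles are the values without control 12 h replicate 2. At 12 h Phlda3 (-0.49) and Bax (-0.44) pass, at 24 h none does, and the wide bars of Ccng1 and Trp53inp1 come with large shifts of the blue circles.

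Whether the MPC EV effect differed between 24 h and 12 h was tested directly. None of the 10 genes passed in limma with Benjamini-Hochberg adjustment, nor did any of all 10981 genes (0%, smallest adjusted p = 0.0756), with 3 and 2014 under an unadjusted p of 0.05. The 3 were Phlda3, Mdm2 and Bax, with differences of 0.49 ± 0.09, 0.21 ± 0.07 and 0.29 ± 0.10 on the log2 scale (adjusted p = 0.13, 0.211 and 0.209). The fall of Phlda3 with MPC EVs at 12 h and its value of 0.00 at 24 h are therefore not shown to differ. Without control 12 h replicate 1 the count was 7, when 33.4% of all genes passed.

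The p53 gene itself, Trp53, was lower with MPC EVs at 12 h. It had 29.1 and 30.5 FPKM in MPC EV myotubes, against 47.0 and 54.1 FPKM in control (-0.75 ± 0.08, adjusted p = 0.00582), and the fall kept its call under median-ratio scaling and GC and length correction (-0.62 and -0.67). Without MPC EV 12 h replicate 1 it just missed the threshold (-0.72, adjusted p = 0.0514), as it did with the 4 libraries of 12 h alone (adjusted p = 0.0992). At 24 h Trp53 had 37.1 and 35.4 FPKM in MPC EV myotubes, against 41.5 and 39.7 FPKM in control (-0.16 ± 0.08, adjusted p = 0.477). From 12 h to 24 h it fell in control myotubes by 0.31 on the log2 scale (adjusted p = 0.0479), a call that held in 6 of 20 alternatives and in 1 of the 8 fits with a library left out, and that was lost without control 12 h replicate 2 (-0.21, adjusted p = 0.0685). In MPC EV myotubes its change with time was 0.28 ± 0.08 (adjusted p = 0.0627), which passed without control 12 h replicate 2 (adjusted p = 0.00842) and with GC and length correction (0.24, adjusted p = 0.0444). Mdm4, a relative of Mdm2 that holds p53 inactive, passed in no comparison, with log2 changes of -0.14 ± 0.32 at 24 h and 0.58 ± 0.32 at 12 h for MPC EVs. Transcript levels do not show the amount or activity of the p53 protein.

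A list of p53 and its regulators held 22 genes, Trp53 itself among them, and 20 were tested. None passed at 24 h for MPC EVs in limma, with 0 at an unadjusted p under 0.05. With all 8 libraries Trp53 was the only one to pass at 12 h. Of all tested genes 3.57% passed at 24 h and 18.6% at 12 h. The median log2 change of the 20 genes at 12 h was 0.0001 with all libraries and -0.09 without control 12 h replicate 2. The 12 h values of this list therefore depend on that library. With time 3 rose in MPC EV myotubes: the ubiquitin ligase Rchy1 (0.48 ± 0.05), the checkpoint kinase Chek2 (1.15 ± 0.18) and the p53 and PML partner Daxx (0.36 ± 0.08). In control myotubes Rchy1 rose (0.26 ± 0.05) and Trp53 fell. Of all tested genes 18.3% passed with time in MPC EV and 17.8% in control myotubes.

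A wider list held 34 other p53 targets, 31 of them tested. With time 14 rose and 1 fell in MPC EV myotubes (median log2 change 0.37, against 0.10 for all genes), and 7 rose and 1 fell in control myotubes (median 0.20, against 0.01). Of all tested genes 12.9% rose and 5.4% fell in MPC EV myotubes, and 7.54% rose and 10.3% fell in control myotubes. Without control 12 h replicate 2 the median of these targets in control myotubes was 0.19, against -0.0018 for all genes. Gdf15, a secreted stress cytokine, had 134.0 and 125.4 FPKM in MPC EV myotubes at 24 h, against 85.7 and 86.8 FPKM at 12 h (0.59 ± 0.08, adjusted p = 0.00723), and it also rose in control myotubes (0.46 ± 0.08). Psrc1, a gene of the mitotic spindle, and the ribosomal protein paralog Rps27l rose in MPC EV myotubes (0.63 ± 0.10 and 0.49 ± 0.08). Apaf1, the scaffold of the apoptosome, and the lipid transfer gene Pltp rose in MPC EV myotubes (0.55 ± 0.10 and 0.78 ± 0.15) and in control myotubes (0.54 ± 0.10 and 1.36 ± 0.15). The tetraspanin gene Cd82 was the 1 that fell in either treatment, by 0.79 in MPC EV and by 0.96 in control myotubes on the log2 scale.

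Fewer of these other targets passed for MPC EVs at 24 h than at 12 h, as did fewer of all tested genes (3.57% at 24 h and 18.6% at 12 h). At 24 h 1 of 31 rose and none fell (2 and 2 without control 12 h replicate 2). It was Zfp365, a zinc finger gene, with 19.3 and 19.0 FPKM in MPC EV myotubes, against 12.6 and 13.5 FPKM in control (0.54 ± 0.08, adjusted p = 0.0263). At 12 h 2 rose and 9 fell (3 and 6 without control 12 h replicate 2), with a median of -0.19 against -0.12 for all genes. Zfp365 rose there too (0.65 ± 0.08). Plk2, a polo-like kinase, had 109.3 and 122.3 FPKM in MPC EV myotubes, against 197.0 and 227.3 FPKM in control (-0.87 ± 0.09, adjusted p = 0.00512). Rps27l had 247.7 and 231.9 against 348.9 and 389.7 FPKM (-0.62 ± 0.08), and Cd82 had 51.8 and 53.3 against 70.8 and 73.9 FPKM (-0.46 ± 0.07). The difference between the 24 h and 12 h effects passed for none of the 31 genes in limma. An unadjusted p under 0.05 was found for 7 of them and for 18.3% of all genes.

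Paralogs of the 10 genes moved in both directions. Gadd45b and Gadd45g, paralogs of Gadd45a, fell with time where Gadd45a rose. Gadd45b had 13.0 and 13.7 FPKM in MPC EV myotubes at 24 h, against 24.3 and 25.5 FPKM at 12 h (-0.87 ± 0.07, adjusted p = 0.00169), and Gadd45g changed by -0.90 ± 0.09. In control myotubes Gadd45b changed by -1.28 ± 0.07 and Gadd45g by -0.67 ± 0.09. Gadd45b was also lower with MPC EVs at 24 h (-0.45 ± 0.07) and at 12 h (-0.85 ± 0.07). Btg1, a paralog of Btg2, rose with time by 0.62 ± 0.09 in MPC EV and 0.67 ± 0.09 in control myotubes, and Btg3 rose in MPC EV myotubes (0.25 ± 0.07). Phlda1, a relative of Phlda3, was higher with MPC EVs at 24 h (0.87 ± 0.16) and fell with time in control myotubes (-0.66 ± 0.16), the last a call lost without control 12 h replicate 2 (-0.61, adjusted p = 0.0524). Of the 10 paralogs listed, 8 were tested, and Mdm4, Ccng2 and Trp53inp2 did not pass in any of these comparisons.

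Among the other cyclin-dependent kinase inhibitors, all 6 tested, Cdkn1c, which encodes p57, fell with time in both treatments. It had 82.7 and 65.5 FPKM in MPC EV myotubes at 24 h, against 230.7 and 213.6 FPKM at 12 h (-1.59 ± 0.13), and changed by -2.06 ± 0.13 in control myotubes. Cdkn1b, which encodes p27, rose with time in both treatments (0.47 ± 0.07 in MPC EV and 0.36 ± 0.07 in control myotubes), and Cdkn2a and Cdkn2d rose in MPC EV myotubes (0.32 ± 0.07 and 0.54 ± 0.12). Cdkn2b was higher with MPC EVs at 24 h (0.58 ± 0.09, adjusted p = 0.0259) and at 12 h (0.43 ± 0.09), and Cdkn2a was lower at 12 h (-0.30 ± 0.07), a call lost without control 12 h replicate 2 (-0.22, adjusted p = 0.051).

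The 12 other BCL2 family genes, partners of Bax and Bbc3 in apoptosis, gave 9 tested genes. Bcl2l11, which encodes the BH3-only protein BIM, rose with time, as did Bbc3. It had 7.07 and 7.13 FPKM in MPC EV myotubes at 24 h, against 2.75 and 2.90 FPKM at 12 h (1.19 ± 0.10), and changed by 1.02 ± 0.10 in control myotubes. Bok, a relative of Bax, fell with time (-0.40 ± 0.09 in MPC EV and -0.91 ± 0.09 in control myotubes). Bcl2l1, which encodes the survival protein BCL-XL, was higher with MPC EVs at 24 h (42.3 and 43.6 FPKM, against 35.2 and 34.4 FPKM in control; 0.30 ± 0.06, adjusted p = 0.0461) and at 12 h (0.32 ± 0.06). Bid and Bok were lower with MPC EVs at 12 h (-0.45 ± 0.10 and -0.42 ± 0.09).

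Of the 18 cell cycle genes, 1 passed for MPC EVs at 24 h, Ccnb2, which encodes cyclin B2 (-0.69 ± 0.12). At 12 h 8 fell and none rose, with a median of -0.43 against -0.12 for all genes. Without control 12 h replicate 2 these medians were -0.36 and -0.10. Of all tested genes 14.3% fell and 4.36% rose at 12 h. Cdk1, the mitotic kinase, had 5.08 and 4.59 FPKM in MPC EV myotubes at 12 h, against 8.03 and 7.66 FPKM in control (-0.65 ± 0.09), and Pcna, the sliding clamp of DNA replication, changed by -0.40 ± 0.05. At 12 h Cdkn1a, whose product inhibits the cell cycle, did not pass in the same libraries. The part of Cdkn1a in the changes of these genes was not tested.

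As a description of how the levels ran together, the 5 genes most like Cdkn1a over the 8 libraries among 7669 others were Mprip, Myo1c, Myog, Ncs1 and Wdr13, with Pearson's r of 0.98 to 0.99 on log2 values. Myog, which encodes the muscle transcription factor myogenin, had 1851 and 1963 FPKM in MPC EV myotubes at 24 h and 2828 and 2799 FPKM at 12 h, and 1913 and 1886 FPKM in control myotubes at 24 h and 2872 and 3290 FPKM at 12 h. Within the 10 genes, Bbc3 and Gadd45a had r = 0.98, and Cdkn1a and Mdm2 had r = -0.91. Ccng1 and Trp53inp1 had r = 0.99 with all libraries and 0.72 without control 12 h replicate 2.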

How the data were processed

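RNA was sequenced from 8 libraries, and the authors deposited FPKM values in a single table, a column for each library. HISAT2, DESeq2 (listed with version 2) and mm10 appear in the submitters' processing notes without a role; the counter, annotation and filters are not stated in any source here. Per the labels' protocols, libraries were not strand-specific, so reads of antisense partners cannot be told apart. Of 35275 gene IDs, 34490 were found in GENCODE vM21, which gave symbols, GRCm38 coordinates and GC content. Depth, inferred from the spacing of low FPKM values, was 16.3 to 20.2 M fragments per library, which gives abundant genes the smallest counting error.

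A minimum mean of 1 FPKM left 10981 genes. limma 3.58.1 (R 4.3.3) was run on log2(FPKM + 0.5) with 4 group means and 4 residual degrees of freedom, eBayes with an intensity trend and a Benjamini-Hochberg threshold of 0.05, two-sided. These steps were tested on simulated data. The members and all lists were chosen with earlier results of these data known. Besides the members, Trp53 and Mdm4, the rule for naming took up to 4 genes per list and comparison with the smallest adjusted p under 0.05, and the 5 genes most like Cdkn1a with a mean of at least 5 FPKM; other genes were named after their values were seen. Alternatives were pseudocounts of 0.1 and 1, a minimum mean of 0.1 or 5 FPKM or none, median-ratio or quantile scaling, no trend, GC and length correction, a replicate term, 4 libraries alone, and each library left out. GC and length correction without control 12 h replicate 2 was added after the data were seen. Python 3.11.15 and matplotlib 3.10.9 drew the figures.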

Additional observations from a re-analysis of the deposited data

Results flagged for a closer look

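Mdm2 was higher with MPC EVs in both libraries at 24 h and lower in both at 12 h. Over all tested genes 23.7% lay wholly higher at 24 h and 45% wholly lower at 12 h. At 12 h the closest Mdm2 values were 60.4 FPKM with MPC EVs and 60.9 FPKM in control. The difference of the 2 effects for Mdm2 was 0.21 ± 0.07 on the log2 scale and did not pass (limma, adjusted p = 0.211). The Mdm2 value at 12 h changed sign with median-ratio scaling. Phlda3 was higher at 24 h than at 12 h in both MPC EV libraries and lower in both control libraries. With time 47.1% of all tested genes lay wholly higher in MPC EV and 30.9% wholly lower in control myotubes. The difference of 0.49 ± 0.09 for Phlda3 did not pass either (limma, adjusted p = 0.13), and it was -0.091 with GC and length correction.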

How the results depend on the processing

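With 2 libraries a group and 4 residual degrees of freedom, the counts of p53 target genes called moved with single libraries. For MPC EVs at 24 h the count of 0 became 2 with GC and length correction without control 12 h replicate 2. At 12 h the count of 2 was 0 with GC and length correction and 0 with the 4 libraries alone, and 0 to 8 with 1 library left out. With time in MPC EV myotubes the count of 7 was 2 to 8 with 1 library left out. With time in control myotubes the count of 6 was 3 with a mean of at least 0.1 FPKM, 2 with no filter, 3 with no variance trend, 3 with GC and length correction, 0 with the 4 libraries alone, and 0 to 9 with 1 library left out. For the difference of the MPC EV effects the count of 0 was 0 to 7. The cause of these moves was not tested.

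With the replicate block the count with time was 4 in MPC EV myotubes and 1 in control myotubes, and 0 or 2 as before elsewhere. The labels give the numbers no shared source. Replicate differences of groups correlated at -0.613 (MPC EV 24 h with control 12 h) to 0.241 (MPC EV 24 h with control 24 h). Control 12 h replicate 2, which stands apart, enters the first of these. The values therefore cannot decide whether libraries of the same number share a culture.

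Genes whose log2 change switched sign were almost all uncalled. Median-ratio scaling gave Cdkn1a 0.0066, Bbc3 0.017, Gadd45a 0.022, Phlda3 0.020 and Eda2r 0.0086 for MPC EVs at 24 h, and Cdkn1a 0.10, Mdm2 0.095 and Gadd45a 0.011 at 12 h. It gave Trp53inp1 -0.095 with time in MPC EV myotubes and Cdkn1a -0.094 for the difference of effects. Quantile normalization gave Cdkn1a 0.044 and Gadd45a 0.013 at 24 h, Cdkn1a 0.062, Mdm2 0.045 and Gadd45a 0.030 at 12 h, Trp53inp1 -0.034 with time in MPC EV myotubes, and Cdkn1a -0.017 and Gadd45a -0.017 for the difference. GC and length correction gave Eda2r 0.062 at 24 h, Cdkn1a 0.15, Bbc3 0.17, the called gene Bax 0.11 and Gadd45a 0.025 at 12 h, and Phlda3 0.15 with time in control myotubes. For the difference it gave Cdkn1a -0.21, Bbc3 -0.31, Bax -0.37, Gadd45a -0.029 and Phlda3 -0.091. The same correction without control 12 h replicate 2 gave Eda2r 0.062 at 24 h and Cdkn1a 0.10, Ccng1 -0.086, Trp53inp1 -0.35 and Gadd45a 0.12 at 12 h. For the difference it gave Cdkn1a -0.15, Ccng1 0.059, Trp53inp1 0.12, Bbc3 -0.046 and Gadd45a -0.13.

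With 1 library left out, changes for MPC EVs at 24 h ranged from -0.048 to 0.017 for Cdkn1a, -0.26 to 0.049 for Ccng1, -0.69 to 0.043 for Trp53inp1, -0.059 to 0.032 for Eda2r, -0.16 to 0.15 for Bbc3, -0.10 to 0.096 for Gadd45a, -0.066 to 0.061 for Phlda3 and -0.14 to 0.053 for Btg2. At 12 h they ranged from -0.13 to 0.059 for Cdkn1a, -0.082 to 1.72 for Ccng1, -0.30 to 2.86 for Trp53inp1 and -0.27 to 0.018 for Gadd45a. With time in MPC EV myotubes Trp53inp1 ranged from -0.36 to 0.37. For the difference Cdkn1a ranged from -0.075 to 0.12 and Gadd45a from -0.019 to 0.27.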
